A study of Mus musculus with 8 samples.

Results

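The genes described here encode the core cardiac transcription factors of the Gata, Nkx2 and Hand families and their Friend of GATA cofactors. They are Gata4, Gata5 and Gata6, Nkx2-5 and Nkx2-6, Hand1 and Hand2, and Zfpm1 and Zfpm2. They were chosen by gene symbol and make up 9 of the 49315 genes listed in the count tables. The counts come from RNA sequencing of hearts taken from C57BL/6 mouse embryos at embryonic day 9.5, with 4 libraries labelled male and 4 labelled female. The sex of an embryo was read by genotyping the Y-linked gene Sry in tissue outside the heart. The labels give no mutant allele and no treatment in either group. They do not say whether a library held a single heart or a pool, or which embryos were littermates, so the p-values below measure the spread between these libraries, part of which may be technical.

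GATA factors are zinc finger proteins that bind the letters GATA in DNA, and Gata4, Gata5 and Gata6 are the members of the family used in heart and endoderm. Nkx2-5 is a homeodomain factor made by heart muscle precursors and heart muscle cells, and it binds DNA together with Gata4. Hand1 and Hand2 are basic helix-loop-helix factors that bind E-box letters as dimers, with Hand1 known mainly from the left ventricle and outer curvature and Hand2 from the right ventricle and outflow tract of the mouse heart. Zfpm1 (Fog1) and Zfpm2 (Fog2) do not act by binding DNA themselves but by binding GATA factors, Zfpm1 classically in blood cells and Zfpm2 in heart.

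The letters immediately upstream of Nkx2-5 and Hand2 are shown because these were the most abundant members per length. Each is the 250 bases before the RefSeq gene start on build GRCm38.p6, written 5′ to 3′ on the strand of the gene. The Nkx2-5 stretch lies at chr17:26841566-26841815 on the minus strand and the Hand2 stretch at chr8:57320733-57320982 on the plus strand. Capitals mark matches on either strand to GATA with A or T before it and A or G after it, to the NK2 letters TNAAGTG, or to the E-box letters CANNTG; an NK2 match and an E-box can share letters.
Nkx2-5: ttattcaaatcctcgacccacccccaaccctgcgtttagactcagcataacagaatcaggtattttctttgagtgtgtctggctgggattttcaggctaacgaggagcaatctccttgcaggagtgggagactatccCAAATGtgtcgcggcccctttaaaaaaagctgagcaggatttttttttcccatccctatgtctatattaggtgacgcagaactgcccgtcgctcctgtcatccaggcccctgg
Hand2: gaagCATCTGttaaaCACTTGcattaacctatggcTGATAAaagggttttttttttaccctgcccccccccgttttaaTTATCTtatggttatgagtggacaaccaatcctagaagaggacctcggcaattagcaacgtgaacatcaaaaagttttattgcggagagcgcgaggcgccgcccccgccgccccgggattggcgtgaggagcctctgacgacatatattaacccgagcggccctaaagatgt
The Hand2 stretch held 2 GATA matches, TGATAA at 215 bases before the start and, read on the other strand, TTATCT at 172 bases before it. It also held the E-box CATCTG at 246 bases before the start and a further E-box, CACTTG, at 235 bases. The Nkx2-5 stretch held 1 E-box, CAAATG, 113 bases before its start, and no GATA or NK2 match. RefSeq promoter entries matched 4 of the 9 members. Of the other matched members, Gata5 held 1 E-box (CACGTG) and Zfpm1 held no match to any of these letters. Among 32536 promoters of the same length, 26.5% held a GATA match, 10.01% an NK2 match and 66.2% an E-box. GC content was 49.2% in both printed stretches, against 70% upstream of Gata5 and 73.2% upstream of Zfpm1.

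On GRCm38, in the coordinates of the deposited tables, Gata4 (ENSMUSG00000021944) lies at chr14:63198922-63271692 on the minus strand. Gata5 (ENSMUSG00000015627) lies at chr2:180325133-180334699 on the minus strand and Gata6 (ENSMUSG00000005836) at chr18:11052510-11085635 on the plus strand. Nkx2-5 (ENSMUSG00000015579) lies at chr17:26838664-26841565 on the minus strand, and Nkx2-6 (ENSMUSG00000044186) at chr14:69171802-69175518 on the plus strand of the chromosome that also carries Gata4. Hand1 (ENSMUSG00000037335) lies at chr11:57828705-57832818 on the minus strand and Hand2 (ENSMUSG00000038193) at chr8:57320983-57324633 on the plus strand. Zfpm1 (ENSMUSG00000049577) lies at chr8:122282141-122337251 and Zfpm2 (ENSMUSG00000022306) at chr15:40655042-41104592, both on the plus strand. All values are counts over the exons of the whole gene.

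Paralogs within a family shared little sequence that reads could be split over. Between the longest protein-coding transcripts of 2 paralogs, the longest identical run was 34 bases, in Nkx2-5 and Nkx2-6, and 15 to 26 bases in the other 5 pairs compared. No 50-base window was shared in any of the 6 pairs. Reads of a member and of an antisense gene over it may not be told apart, since no source used here gives the strand setting of the counting. Gata5 shares 258 exon bases with Gata5os (29 to 119 counts per library), Gata6 shares 58 with 1010001N08Rik (242 to 544 counts) and Nkx2-6 shares 56 with 1700092C10Rik (0 to 12 counts). The antisense gene that overlaps Hand2 by 443 bases had 0 counts in every library.

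Total counts per library were 21778953 to 39773169 in males and 20105913 to 51134291 in females. Xist had 8 to 21 counts in male libraries and 4829 to 12303 in female libraries, and the Y-linked Ddx3y had 849 to 2629 counts in males and 3 to 7 in females. The heart label was checked with 10 cardiomyocyte markers, all counted in every library, whose summed level was 32014 to 57599 CPM (counts scaled by library size and TMM factor, which corrects for composition) in males and 28379 to 38032 CPM in females. Male replicate 2 stood apart from the other libraries. On the first principal component of all tested genes, which held 65.4% of the variance, it lay at 54.1, against -31.1 to 12.5 for the other 7 libraries. Its summed cardiomyocyte markers (57599 CPM), foregut and pharyngeal epithelium markers (488 CPM, with 233 to 411 elsewhere) and second heart field markers (326 CPM, with 162 to 235 elsewhere) were the highest of all libraries. The mean log2 deviation of the foregut markers was higher in Female replicate 1 (1.65) than in Male replicate 2 (1.06). That of the second heart field markers was alike in Female replicate 1 (0.73) and Male replicate 2 (0.75). Mef2c alone made up 239 CPM of the second heart field sum in Male replicate 2. The share of counts on the mitochondrial chromosome was 0.707% in Male replicate 2 and 0.999% to 1.72% elsewhere.

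Levels are given as TMM-scaled CPM and, to compare genes, as CPM per kilobase of exon. Nkx2-5 had the highest level of the 9 genes, at 332 ± 42.8 CPM per kilobase (SD, n = 8 libraries), higher than 98.8% of the 16377 genes tested. Hand2 came next at 88.8 ± 5.65, then Gata4 at 58.0 ± 8.06 and Hand1 at 39.2 ± 8.17 CPM per kilobase. Zfpm1 (35.3 ± 4.13), Gata6 (35.2 ± 2.57) and Gata5 (33.1 ± 1.71 CPM per kilobase) followed close together. Nkx2-6 at 6.74 ± 2.69 and Zfpm2 at 2.39 ± 0.239 CPM per kilobase were the lowest, Zfpm2 above 42.6% of tested genes. All 9 members passed the filter on low counts.

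The ranges of neighbouring genes over the 8 libraries did not overlap between Nkx2-5 and Hand2, Hand2 and Gata4, Gata5 and Nkx2-6, and Nkx2-6 and Zfpm2. Gata4 was above Hand1 in 8 of 8 libraries although their ranges overlapped. Hand1 was above Zfpm1 in 7 of 8 libraries, Zfpm1 above Gata6 in 4 of 8 and Gata6 above Gata5 in 6 of 8, and in these pairs the means differed by less than the larger SD. The place of Hand1 in this group rested on Male replicate 2. Over the other 7 libraries Hand1 averaged 41.7 ± 4.58 CPM per kilobase (SD, n = 7), above Zfpm1 (35.7 ± 4.32), Gata6 (34.6 ± 2.11) and Gata5 (33.4 ± 1.47) by more than the larger SD, and it was the highest of these genes in 7 of 7 libraries. Its range then lay below that of Gata4. Zfpm1, Gata6 and Gata5 stayed within the larger SD of their neighbour without Male replicate 2. Without Female replicate 3, Gata6 (35.9 ± 1.81) lay above Gata5 (33.0 ± 1.81) by more than the larger SD.

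**Figure D1:**
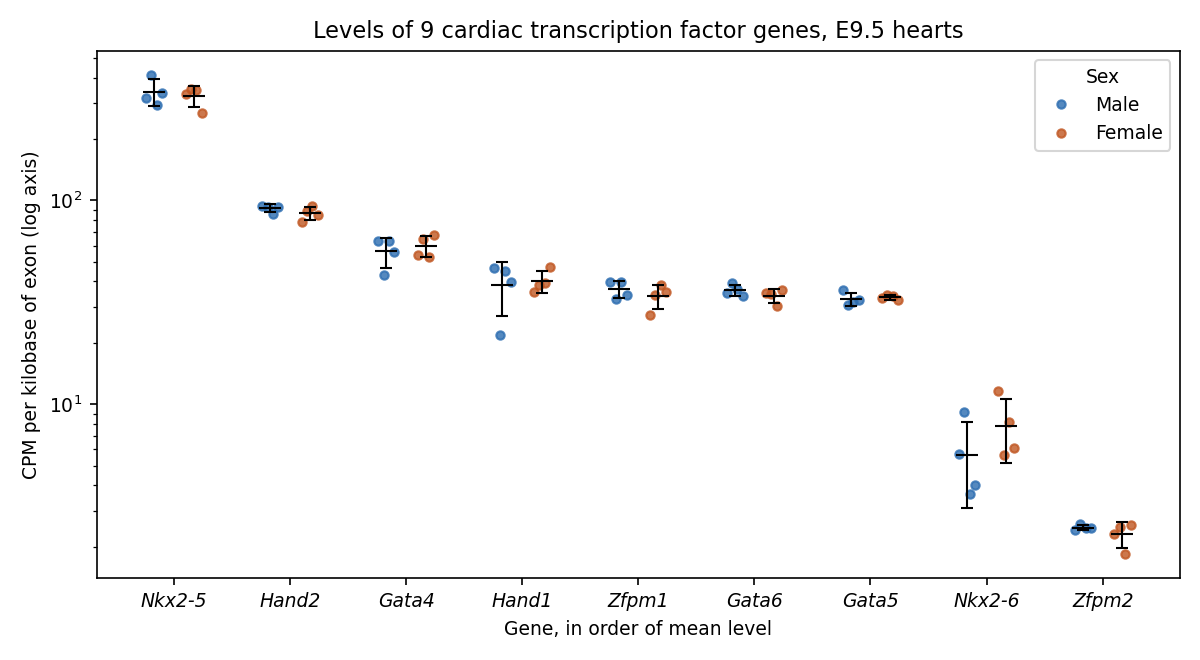
Level of each member in CPM per kilobase of exon (log axis), 1 point per library, males left of females, with mean and SD of 4 libraries (black). Nkx2-5 lies above all other members, Zfpm1, Gata6 and Gata5 lie at like levels, and Hand1 lies above them in the 7 libraries other than Male replicate 2.

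Nkx2-5 measured 486, 629.7, 449.5 and 511 CPM in the males, replicates 1 to 4, with 504, 537, 529 and 409 CPM in the females, in the same replicate order. Male replicate 2 was the highest and Female replicate 4 the lowest, and the sexes overlapped. Its paralog Nkx2-6, known in mouse from the pharyngeal endoderm, outflow region and sinus venosus, measured 6.43, 10.4, 4.11 and 4.57 CPM in males and 13.1, 6.39, 9.27 and 6.88 CPM in females, from raw counts of 93 to 490. Per length, Nkx2-6 made up 1.58% ± 0.469 of the Nkx2-5 and Nkx2-6 sum in males and 2.36% ± 0.747 in females (SD, n = 4 each), lowest in Male replicate 4 (1.19%) and highest in Female replicate 1 (3.37%). Nkx2-6 varied most of the 9 genes, with a coefficient of variation of 40.0% over 8 libraries, where counting error alone gives 7.02%. Without Male replicate 2 it was 42.4%.

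The libraries in which Nkx2-6 was highest also held more RNA of foregut markers. The 12 foregut and pharyngeal markers, of which 11 were counted in every library and Shh was at 0 in some, summed to 285, 488, 236 and 273 CPM in males and 411, 360.4, 392 and 233 CPM in females. Female replicate 1, Male replicate 2 and Female replicate 3 held both the 3 highest Nkx2-6 values and the 3 highest sums. Hepatic and yolk sac markers summed to 89.1 CPM in Female replicate 1 and 39.9 CPM in Male replicate 2, and to 3.15 to 21.1 CPM in the other 6 libraries, with 5 of 10 counted in every library and Alb, Apob, Hnf4a, Fgb and Serpina1a at 0 in some. Their part in the Nkx2-6 values was not tested. In RNA from whole hearts, fewer cells of a type and less RNA per cell cannot be told apart.

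Gata4 measured 247, 168, 246 and 217 CPM in males and 211, 253, 207 and 263 CPM in females. Male replicate 2 had the lowest value, at 0.716 times the mean of the other 7 libraries. Gata6 measured 112, 126, 117 and 108 CPM in males and 112, 110.5, 96.9 and 116 CPM in females. Here Male replicate 2 had the highest TMM-scaled value, 1.14 times the mean of the others. That place depended on its TMM factor of 0.864. By library size alone Gata6 in Male replicate 2 was below most other libraries, while Gata4 was still lowest there. Gata5, known from endocardium and endocardial precursors, measured 119, 100, 104 and 107 CPM in males and 108, 112, 111 and 106 CPM in females. With TMM scaling its coefficient of variation, 5.17%, was the smallest of the 9 members. On that scale its SD of log2 values (0.074) was below that of all but 3.21% of tested genes. By library size alone Gata5 varied more than Hand2 and Gata6.

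Together the heart-and-endoderm Gata genes summed to 125 ± 9.75 CPM per kilobase in males and 127 ± 9.05 in females (SD, n = 4 each). Gata4 held 44.6% ± 4.44 of this sum in males and 46.9% ± 2.54 in females, Gata6 held 29.2% ± 3.87 in males and 26.8% ± 1.32 in females, and Gata5 held 26.2% ± 1.34 in males and 26.3% ± 2.19 in females. In Male replicate 2 the Gata4 share was 38.1% and the Gata6 share 34.8%. In the other 7 libraries Gata4 held 44.2% to 49.4% and Gata6 25.9% to 28.7%. The blood GATA genes were lower per length, with Gata1 at 2.70 ± 0.84 in males and 3.10 ± 1.16 in females, and Gata2 at 3.64 ± 0.225 in males and 3.74 ± 0.381 CPM per kilobase in females.

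Hand2 measured 221, 219, 201 and 219 CPM in males and 185, 207, 221 and 198 CPM in females, with a coefficient of variation of 6.36%. Hand1 measured 92.9, 43.8, 90.3 and 79.2 CPM in males and 71.0, 76.7, 78.2 and 94.4 CPM in females. The Hand1 level of Male replicate 2 was 0.526 times the mean of the other 7 libraries, where it ran from 71.0 to 94.4 CPM. With that library the coefficient of variation of Hand1 was 20.8%, and without it 10.98%, where counting error alone gives 2.07%. Hand1 made up 29.2% ± 7.002 of the per-length Hand sum in males and 31.7% ± 2.90 in females (SD, n = 4 each). Its share was 19.1% in Male replicate 2 and 29.4% to 35.9% elsewhere, while the sum itself was 129.7 ± 10.7 CPM per kilobase in males and 126 ± 8.58 in females.

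Zfpm1 measured 139, 115, 139.6 and 120.3 CPM in males and 96.2, 120.5, 134 and 125 CPM in females, lowest in Female replicate 1. Zfpm2 measured 12.003, 12.8, 12.3 and 12.3 CPM in males and 11.5, 12.5, 9.17 and 12.8 CPM in females, lowest in Female replicate 3. Per length, Zfpm2 made up 6.39% ± 0.744 of the sum of both cofactors in males and 6.46% ± 1.33 in females, so most Friend of GATA RNA in these hearts was Zfpm1. Blood RNA was present beside it: 10 erythroid markers, all counted in every library, summed to 7611, 7189, 9863 and 6411 CPM in males and 5458, 4732, 12511 and 6313 CPM in females, and 8 megakaryocyte markers to 164 to 214 CPM in males and 179 to 214 CPM in females. The part of blood cells in the Zfpm1 level was not tested. Zfpm1 was lowest in Female replicate 1 and highest in Male replicate 3, which had the second-lowest and second-highest erythroid sums. The lowest and highest erythroid sums were in Female replicate 2 and Female replicate 3. There Zfpm1 measured 120.5 and 134 CPM and was at neither end of its range. The mean log2 deviation of the megakaryocyte markers was lowest in Female replicate 1 (-0.53) and highest in Male replicate 3 (0.44), as was Zfpm1. Their sum was lowest in Male replicate 2 (164 CPM) and highest in Female replicate 4 (214 CPM), where Zfpm1 measured 115 and 125 CPM.

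**Figure D2:**
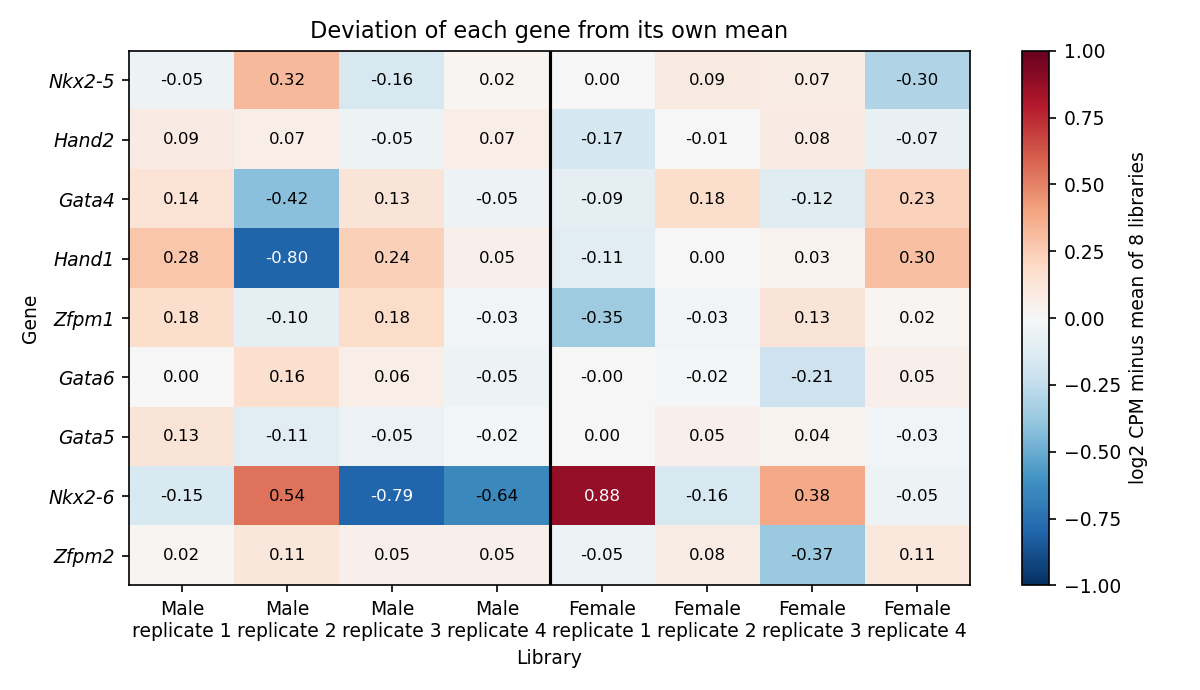
Deviation of each member's log2 CPM from its own mean over the 8 libraries, males left of the line and females right of it. In Male replicate 2 Hand1 (-0.80) and Gata4 (-0.42) lie below their means and Nkx2-5 (0.32) above its mean.

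A ratio of 2 genes in the same library does not depend on library scaling, so 7 ratios were compared next, as reads per exon length with 0.5 added to each count. Gata4 over Gata6 was 1.80, 1.09, 1.72 and 1.64 in males and 1.54, 1.88, 1.75 and 1.85 in females. Outside Male replicate 2 it stayed between 1.54 and 1.88, and the SD of its log2 value was 0.25 with that library and 0.10 without it. Gata5 over Gata6 was lowest in Male replicate 2 (0.776) and highest in Female replicate 3 (1.12). Gata5 over Gata4 was 0.505 to 0.709 in males and 0.481 to 0.640 in females.

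Hand1 over Hand2 was 0.494, 0.236, 0.529 and 0.427 in males and 0.452, 0.435, 0.417 and 0.561 in females. Without Male replicate 2 its lowest value was 0.417, and the SD of its log2 value was 0.17 in place of 0.38. Nkx2-6 over Nkx2-5 had the widest spread of the 7, with 0.0121 in Male replicate 4 and 0.0350 in Female replicate 1 as its ends, and its log2 SD was 0.52 with Male replicate 2 and 0.55 without it. Zfpm1 over Zfpm2 ran from 11.9 in Female replicate 1 to 20.7 in Female replicate 3, with males between 12.7 and 16.4. Gata4 over Zfpm2, the factor over its cardiac cofactor, was 16.7 to 26.2 in males and 23.4 to 28.6 in females.

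None of the 7 ratios passed an exact 2-sided permutation test between the sexes over the 70 divisions into 4 and 4. Its smallest possible p is 0.0286, which for a single ratio adjusts to 0.2 over the 7, so the design could hardly pass. The lowest p was 0.143, adjusted to 0.6 over the 7 ratios, for Nkx2-6 over Nkx2-5, whose mean log2 ratio was -6.003 ± 0.43 in males and -5.42 ± 0.46 in females (SD, n = 4 each). Next were Gata4 over Zfpm2, with a male minus female log2 difference of -0.22 (exact permutation p = 0.171, adjusted p = 0.6), and Gata5 over Gata6, with -0.12 (exact permutation p = 0.343, adjusted p = 0.7). Gata4 over Gata6 differed by -0.19 (exact permutation p = 0.4, adjusted p = 0.7). Without Male replicate 2 the difference was -0.075 for Gata4 over Zfpm2, -0.046 for Gata5 over Gata6, -0.025 for Gata4 over Gata6 and -0.76 for Nkx2-6 over Nkx2-5, against -0.59 for that ratio with it. Without Female replicate 3 it was -0.056 for Gata5 over Gata6, without Male replicate 1 it was -0.18, and without Female replicate 1 it was -0.39 for Nkx2-6 over Nkx2-5. Hand1 over Hand2 differed by -0.20, and by 0.056 without Male replicate 2. Gata5 over Gata4 differed by 0.069, and by -0.021 without Male replicate 2 or -0.0057 without Female replicate 4. Zfpm1 over Zfpm2 differed by -0.00080, with the sign turned when Male replicate 2 (0.070), Male replicate 4 (0.026) or Female replicate 3 (0.16) was left out.

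**Figure D3:**
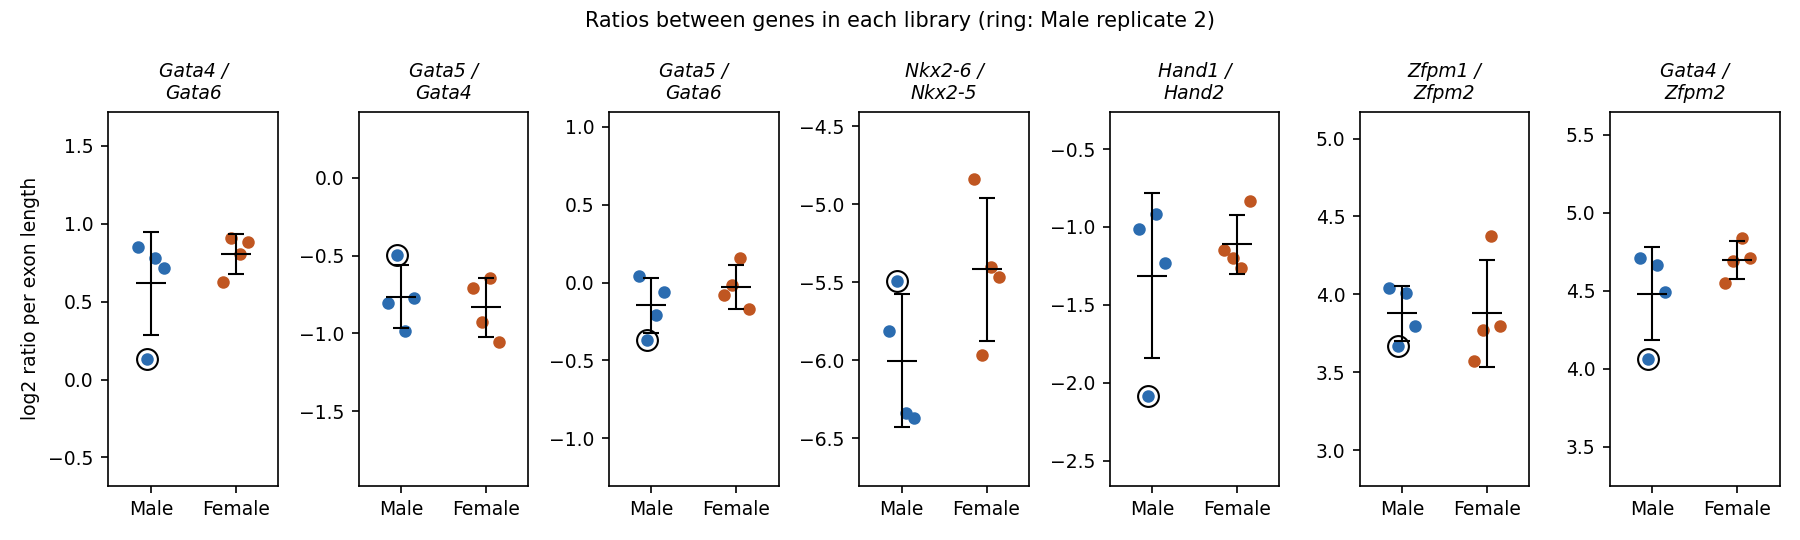
The 7 ratios on a log2 scale per exon length, 1 point per library, with mean and SD of 4 libraries; every panel spans the same number of log2 units, and the ring marks Male replicate 2. Male replicate 2 is the lowest library in Gata4 over Gata6, Gata5 over Gata6, Hand1 over Hand2 and Gata4 over Zfpm2, and the sexes overlap in every panel.

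Covariation was measured over the 8 libraries as 1 set, as Pearson's r and Spearman's rho of log2 CPM for the 36 pairs of members, each with an exact permutation p. With TMM scaling 0 of 36 pairs passed a Benjamini-Hochberg adjusted p of 0.05 for r, and 4 had an unadjusted p below it. Gata4 and Hand1 had the highest r, 0.901 (exact permutation p = 0.00702, adjusted p = 0.126; rho = 0.714, permutation p = 0.0576, adjusted p = 0.595). Among all pairs of tested genes 2.86% had an r of 0.9 or more, and 1 of the 36 member pairs did. Without the 2 libraries farthest from the median Gata4 level, Male replicate 2 and Female replicate 4, r was 0.602 (exact permutation p = 0.279). Without Male replicate 2 alone r was 0.712. Leaving out the end libraries narrows the range of Gata4, so the fall in r cannot show whether the relation rests on them.

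Nkx2-5 ran opposite to Hand1, with r = -0.871 (exact permutation p = 0.00263, adjusted p = 0.0946; rho = -0.833, permutation p = 0.0154, adjusted p = 0.554). Without the same 2 libraries r was -0.688 (exact permutation p = 0.124), and without Male replicate 2 alone -0.774. Nkx2-5 and Gata4 had r = -0.818 (exact permutation p = 0.0146, adjusted p = 0.131; rho = -0.595, permutation p = 0.132, adjusted p = 0.595), which became -0.342 without the 2 farthest libraries. Gata6 and Zfpm2 had r = 0.854 (exact permutation p = 0.0109, adjusted p = 0.131; rho = 0.690, permutation p = 0.0694, adjusted p = 0.595), which was 0.275 without Female replicate 3 and Male replicate 2. For this pair the value without Male replicate 2 alone was 0.896, and without Female replicate 3 alone 0.534.

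No pair of paralogs within a family passed the adjusted threshold. With TMM scaling r was 0.513 for Gata4 and Gata5, -0.152 for Gata4 and Gata6, -0.566 for Gata5 and Gata6, 0.445 for Nkx2-5 and Nkx2-6, -0.178 for Hand1 and Hand2, and -0.149 for Zfpm1 and Zfpm2. Gata4 and Gata6 had r = 0.703 when Male replicate 2 was left out, and Hand1 and Hand2 had 0.235. Zfpm1 and Zfpm2 had 0.396 when Female replicate 3 was left out.

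Scaling also changed these correlations. The TMM factor of Male replicate 2 was 0.864, against 0.982 to 1.07 in the other 7 libraries. With CPM by library size alone, 13 of the 36 pairs had an r of the other sign and 22 pairs in place of 13 had a positive r. For r, 2 pairs passed the adjusted threshold. These were Gata4 and Hand1, with r = 0.950 (exact permutation p = 0.00208, adjusted p = 0.0375; rho = 0.881, adjusted p = 0.0521), and Gata6 and Zfpm2, with r = 0.921 (exact permutation p = 0.00176, adjusted p = 0.0375; rho = 0.929, adjusted p = 0.0402). Without the 2 farthest libraries their r was 0.722 and 0.596. For rho, Gata4 and Hand1 did not pass, while Gata4 and Zfpm2 did (rho = 0.929, permutation adjusted p = 0.0402). The r of Gata4 and Zfpm2 was 0.603 (exact permutation adjusted p = 0.292). On this scale 3 member pairs had an r of 0.9 or more, and so did 5.32% of all pairs of tested genes. Gata4 and Gata6 had r = 0.564, Gata5 and Gata6 0.284, Hand1 and Hand2 0.679 and Zfpm1 and Zfpm2 0.243 on this scale, each of the other sign than with TMM. The number of pairs past the adjusted threshold for r on this scale was 0 without Male replicate 1, 2 or 3 or Female replicate 4, 1 without Female replicate 1, 2 without Male replicate 4 or Female replicate 2, and 4 without Female replicate 3. With TMM it was 2 without Female replicate 2, Gata4 with Nkx2-5 (r = -0.961) and Gata4 with Hand1 (r = 0.954), and 0 without any other library.

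**Figure D4:**
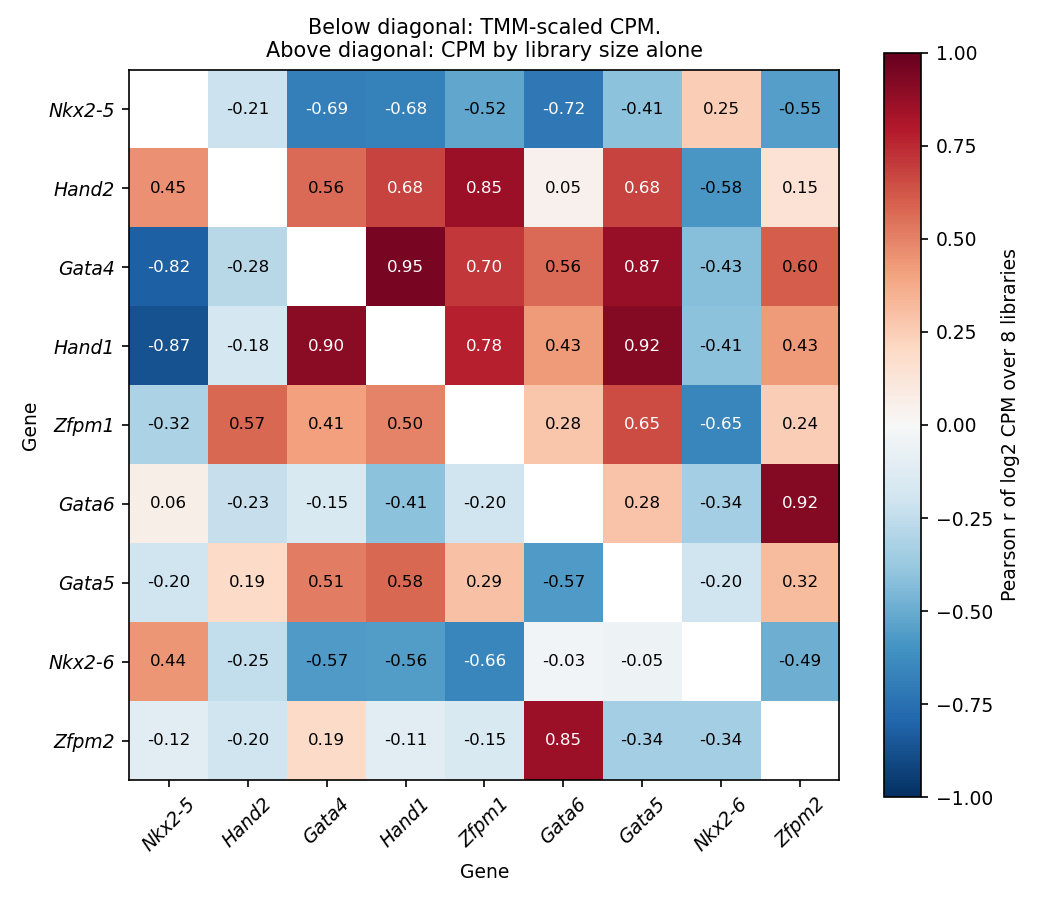
Pearson r of log2 CPM over 8 libraries for each pair of members, with TMM-scaled CPM below the diagonal and CPM by library size alone above it. Gata4 and Hand1 are at 0.90 and 0.95, and several pairs of paralogs have r of opposite sign on the 2 sides of the diagonal.

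Hand1, Gata4 and Nkx2-5 followed the main axis of variation of the whole dataset. Hand1 had r = -0.972, Gata4 r = -0.952 and Nkx2-5 r = 0.919 with the first principal component, given as a description over the 8 libraries that define it. Of all tested genes, 6.18%, 12.3% and 21.2% had an absolute r at least as large. The other 6 members had r between -0.507 (Zfpm1) and 0.597 (Nkx2-6). The cardiomyocyte marker sum had the same end libraries as this axis, with 57599 CPM in Male replicate 2 and 28379 CPM in Female replicate 4. These were also the highest and lowest libraries for Nkx2-5 and the lowest and highest for Hand1 and Gata4. Between the ends the sum did not always follow the axis. Female replicate 1, nearest to Male replicate 2 at 12.5, had 33660 CPM, and Female replicate 3, at 4.27, had 38032 CPM. Endocardium and endothelium markers, 10 of 10 counted in every library, summed to 851 CPM in Male replicate 2 and 1016 CPM in Female replicate 4, and were lowest in Female replicate 1 (818 CPM). The part of cell makeup in these values was not tested.

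The number of genes with a like profile differed widely between members. Among 10280 genes with a mean of at least 5 CPM, 1640 (15.95%) had an r of 0.9 or more with Hand1 over the 8 libraries, 1195 with Gata4 and 1066 with Nkx2-5, against 3 with Zfpm2, 4 with Gata5, 9 with Gata6, 13 with Nkx2-6, 23 with Hand2 and 40 with Zfpm1. Closest to Hand1 were Synpo2 (0.998), Slc22a5 (0.997) and Zfp787 (0.996). Closest to Gata4 were Exoc2 (0.989), Cnot2 (0.988) and Orc3 (0.988), and closest to Nkx2-5 were Dcakd (0.988), Eno3 (0.986), the muscle enolase, and Gamt (0.985). Gata6 was most like Vezf1 (0.979), a zinc finger factor of vascular endothelium, Crim1 (0.973), a transmembrane protein that binds Bmp ligands, and Gen1 (0.936). Gata5 was most like Maf1 (0.918), Tut1 (0.917) and Rab3b (0.910). Nkx2-6 was most like Itpripl1 (0.975), Ercc5 (0.942) and Sat1 (0.937), and Hand2 most like Sipa1 (0.968), Abcb8 (0.951) and Igfbpl1 (0.945). Among the genes close to Zfpm1 were Nucb1 (0.953) and Cntfr (0.952), and Zfpm2 was most like Zhx2 (0.949), Pdxk (0.910) and Lipt1 (0.903). All these r share the 8 libraries and their scaling and are descriptions.

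The study's design compares male with female hearts. Of 16377 genes tested with edgeR's quasi-likelihood test, 6 (0.0366%) had a Benjamini-Hochberg adjusted p below 0.05, and 0 of the 9 members did. The adjusted p was 0.9995 for every member, and 0 members had an unadjusted p below 0.05 with all 8 libraries, as did 367 genes (2.24%) of all tested. DESeq2 and limma-voom also called 0 members. In 0 of the 9 did all males lie on 1 side of all females, which held for 368 genes (2.25%) overall.

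The widest difference was that of Nkx2-6, with a log2 fold change, male minus female, of -0.47 ± 0.33 (SE; edgeR unadjusted p = 0.182) and levels of 5.62 ± 2.51 CPM per kilobase in males and 7.85 ± 2.70 in females (SD, n = 4 each). Its log2 fold change was -0.81 without Male replicate 2, with an unadjusted edgeR p of 0.0115 and an adjusted p of 0.970. Without Female replicate 1 it was -0.22, and without Male replicate 3 it was -0.32. With Male replicate 2 and Female replicate 1 both left out it was -0.56, with an unadjusted edgeR p of 0.0230 and an adjusted p of 0.99996. The log2 fold changes of the others, from edgeR with their SE, were small beside their errors. They were -0.090 ± 0.14 for Gata4, -0.027 ± 0.079 for Gata5, 0.088 ± 0.088 for Gata6, 0.069 ± 0.14 for Nkx2-5, -0.066 ± 0.21 for Hand1, 0.083 ± 0.086 for Hand2, 0.11 ± 0.12 for Zfpm1 and 0.10 ± 0.12 for Zfpm2. Without Male replicate 2 the sign turned for Gata4 (0.018), Gata5 (0.0057), Nkx2-5 (-0.038) and Hand1 (0.13), and without Female replicate 4 for Nkx2-5 (-0.011) and Hand1 (0.024).

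The lists of related genes gave the setting of the members, with 0 genes called by edgeR in each and 0 to 3 genes in each with an unadjusted p below 0.05. Of the 9 members, 5 had a positive and 4 a negative log2 fold change, with a median of 0.069, against 0.011 over all tested genes. Among the 9, 7 were positive without Male replicate 2, with a median of 0.045. Of 11 tested other GATA, NK2 and Twist-class genes, out of 14 listed, 4 were positive and 7 negative (median -0.043). The most abundant of these per length were Twist1, a mesenchyme factor, at 20.7 ± 4.35 CPM per kilobase in males and 21.0 ± 3.05 in females, and Tcf21, a factor of the epicardium, at 7.42 ± 3.999 in males and 7.23 ± 1.55 CPM per kilobase in females (SD, n = 4 each).

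Of 22 partners and co-regulators, 10 were positive and 12 negative (median -0.0096), and 11 were positive without Male replicate 2 (median 0.0035). The most abundant were Smyd1, a muscle methyltransferase, at 111 ± 8.72 CPM per kilobase in males and 111 ± 10.8 in females, and Hopx, a homeodomain protein that does not bind DNA, at 78.2 ± 15.8 in males and 83.6 ± 7.11 CPM per kilobase in females. Hey1, with a log2 fold change of -0.22, and Lmcd1, a protein that binds Gata6, with 0.43, were the genes of this list with an unadjusted edgeR p below 0.05. Both had an adjusted p of 0.9995 and are named after their values were seen. Of 18 upstream genes, 5 were positive and 13 negative (median -0.055), and 8 were positive without Male replicate 2 (median -0.026). This list holds Bmp ligands, their receptors and Smad genes, and also Tbx1, Fgf8 and Fgf10. The log2 fold change was -0.35 for Tbx1, 0.094 for Fgf8 and -0.34 for Fgf10. Bmp7, a secreted ligand, measured 43.8 ± 3.08 in males and 42.7 ± 2.78 CPM per kilobase in females, and Smad6, an inhibitor of Bmp signalling, 41.9 ± 10.6 in males and 44.3 ± 5.92 CPM per kilobase in females.

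Of 22 genes reported as cardiac targets of these factors, 18 had a positive log2 fold change and 4 a negative one, with a median of 0.21. Without Male replicate 2, whose cardiomyocyte markers were highest, 16 were positive and the median was 0.089, against 0.00048 over all tested genes. Myh6, Myh7, Tnnt2, Myl7 and Ryr2 are both targets on this list and cardiomyocyte markers, so the marker sum is not independent of it. Myh7, with a log2 fold change of 0.46, Gja5, with 0.28, and Myh6, with 0.40, had an unadjusted edgeR p below 0.05, again with an adjusted p of 0.9995, and are named after their values were seen. Myh7 and Myh6 encode myosin heavy chains of heart muscle, and Gja5 a gap junction connexin. The most abundant targets were Myl7, the atrial myosin light chain, at 12558 ± 5101 CPM per kilobase in males and 10680 ± 2283 in females, and Actc1, the cardiac actin, at 7065 ± 192 in males and 7214 ± 739 CPM per kilobase in females (SD, n = 4 each).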

How the data were processed

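RNA of 4 male and 4 female embryonic hearts was measured by sequencing. The deposited counts are whole numbers per gene, made by the authors and not normalized. The tools listed in the submitters' processing notes are STAR 2.5.2b, Trimmomatic 0.36, and Subread 1.5.2 with featureCounts, on build GRCm38 (mm10). The sources used here give no annotation release, strand setting or handling of multimapped reads. A second table deposited by the authors holds a normalized signal, the counts divided by 1 factor per library for 16460 genes with a total above 80, and was used only as an alternative. The exon length of each gene is that of the deposited tables.

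The sex contrast was fitted to all 8 libraries with edgeR 4.0.16 (R 4.3.3) by its robust quasi-likelihood test, 2-sided and without covariates, after TMM scaling and filterByExpr at a minimum count of 10. P-values were adjusted over the 16377 genes that passed. The SE of a log2 fold change is its size over the square root of the F statistic. Ratios and correlations were computed with Python 3.11.15, numpy 2.4.6 and scipy 1.17.1 by exact permutation, and figures with matplotlib 3.10.9. Alternatives were DESeq2 1.42.0, limma-voom of limma 3.58.1, other scaling, other filters, the replicate number as a block, and leaving out each library. The edgeR fit of the sex contrast was tested on simulated counts. Replicate libraries were distinct beyond counting noise in every pair (chi-square per gene of 7.93 to 192). The members had 93 to 26659 counts per library, and the counting errors given cover only sampling of reads.

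Named genes were the 9 members, the 2 most abundant genes per length of each related list with any that were called, and the 3 genes most like each member. Of the genes this rule names, 1 is not reported here. The members and lists were chosen with earlier results of these data known. Promoter sequences are from RefSeq on GRCm38.p6.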

Additional observations from a re-analysis of the deposited data

Results flagged for a closer look

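Of the 32 groups of 4 libraries examined among the members' levels and ratios, 1 held a library far from the others. Hand2 measured 200.9 CPM in Male replicate 3, while the other 3 males lay between 219 and 221 CPM. The gap to the nearest male was 0.876 of the whole range of the males, above Dixon's 95% critical value for 4 samples. Chance flags about 1 in 20 such groups. The female libraries lay between 185 and 221 CPM, on both sides of the value of Male replicate 3. The flag depended on TMM scaling. By library size alone Male replicate 2 was the lowest male for Hand2 and Male replicate 3 lay within the range of the others.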

How the results depend on the processing

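The count of genes called in the sex contrast was 6 and stayed between 5 and 9 in 17 alternatives (6 to 7 when single libraries were left out), with 0 members called in each. With the replicate block 5 genes were called. Deviations from the sex means had correlations of -0.493, 0.0186, -0.411 and 0.146 in same-numbered libraries. In unlike-numbered libraries they ran from -0.813 to 0.780. With so wide a range they cannot tell whether same-numbered libraries shared a litter or a batch. The lowest adjusted p of any member over 153 alternatives was 0.835. The ratio tests could not pass under the replicate block (smallest p 0.125) or with a library left out. In those settings too few divisions exist for an exact permutation p below 0.05. They could hardly pass in the rest of their 77 alternatives, so they say nothing about stability. The sign turned in 8 of the 153 and 6 of the 77.

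Leaving out single libraries gave log2 fold changes of -0.15 to 0.018 for Gata4, -0.077 to 0.0057 for Gata5, -0.038 to 0.13 for Nkx2-5, -0.17 to 0.13 for Hand1, -0.81 to -0.22 for Nkx2-6, 0.038 to 0.12 for Gata6, 0.046 to 0.13 for Hand2, 0.026 to 0.17 for Zfpm1 and 0.014 to 0.16 for Zfpm2. It gave ratio differences of -0.021 to 0.14 for Gata5 over Gata4, -0.33 to 0.056 for Hand1 over Hand2, -0.10 to 0.16 for Zfpm1 over Zfpm2, -0.26 to -0.025 for Gata4 over Gata6, -0.18 to -0.046 for Gata5 over Gata6, -0.29 to -0.075 for Gata4 over Zfpm2 and -0.77 to -0.39 for Nkx2-6 over Nkx2-5. With both Female replicate 1 and Male replicate 2 left out, Nkx2-5 was at -0.032 and Hand1 at 0.068, and r was -0.0046 for Gata4 with Gata5 and 0.855 for Gata4 with Gata6. Leaving out single libraries gave r of -0.550 to 0.703 for Gata4 with Gata6, -0.405 to 0.235 for Hand1 with Hand2 and -0.428 to 0.396 for Zfpm1 with Zfpm2.

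With library size alone, r was 0.564 for Gata4 with Gata6, 0.284 for Gata5 with Gata6, 0.679 for Hand1 with Hand2 and 0.243 for Zfpm1 with Zfpm2, and 2 pairs passed the adjusted threshold for r. Over all leave-one-out settings, on both scales, 0 to 4 pairs passed. Spearman's rho was 0.0476 for Gata4 with Gata6 and 0.0238 for Hand1 with Hand2. The cause of these changes was not tested. The order of the 9 levels was the same with library size alone and with values scaled to the same sum over all genes per length. Leaving out single libraries kept 7 to 8 of the 8 neighbouring pairs in order, with Zfpm1 and Gata6 the pair that changed. Leaving out libraries for the order of levels and in the correlations, apart from Male replicate 2 and Female replicate 1 with TMM scaling, was chosen after seeing the data. Depth limits Nkx2-6 and Zfpm2 most, with counting errors of 7.02% and 5.28%.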
